A study of Drosophila melanogaster with 4 samples.

Results

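Mitochondrial carriers are proteins of the SLC25 type that move metabolites, nucleotides, cofactors and ions across the inner mitochondrial membrane, and their transcripts were compared between *poly* mutant and wild-type larvae of *Drosophila*. The genes were taken from a list of 37 carriers drawn up around *Dic1* (CG8790), a dicarboxylate carrier whose gene overlaps *poly*. Of the 37, 29 had a probe of their own on the array, with 31 probes, out of 11907 named genes and 14569 probes in all. The list was chosen by a rule that used the ratios of these arrays, that of *Dic1* among them, so the values of the carriers are a description and no test is made of them. Adjusted p-values of carriers are given only to place each gene among all probes. The 8 carriers not analysed here are *Dic2*, *sea* (a citrate carrier), *Shawn*, *Tyler*, *DPCoAC*, CG5254, and *sesB* and *Ant2*. The last pair, the ADP/ATP translocases, stand together on 2 probes that carry both symbols. One carrier of the list, *PMP34*, is known from other species as a protein of peroxisomes and not of the inner mitochondrial membrane.

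Each of 4 two-colour arrays held RNA of whole *poly* mutant larvae and of whole wild-type larvae of Canton S, and gave a log2 ratio of *poly* over wild-type for every probe. The mutant carried the P-element allele poly05137, kept as a stock over the TM6B balancer in the labels, and the sources used here do not say if the larvae taken for RNA were homozygous. Both genotypes are listed with a Canton S background, had no treatment and were larvae early in the third instar that had fed on yeast paste for 24 h. The 4 arrays held 4 biological replicates of each genotype, with *poly* labelled with Cy5 on replicates 1 and 2 and with Cy3 on replicates 3 and 4. A ratio below 0 means less signal in *poly*, and a log2 ratio of 1 in size means a change by a factor of 2. Whole larvae were used, so fewer cells of a type and less RNA per cell cannot be told apart. The files hold ratios and no intensities, so the levels of carriers cannot be compared with each other, signal over background is unknown, and the labelled tissue cannot be checked by the presence of markers. The number of arrays, 4, limits the precision.

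A carrier of this type is built from a repeated pair of membrane-spanning helices and usually swaps one substrate for another. Carriers link the cytosol with the matrix: they bring in phosphate and ADP for ATP synthesis, pass malate, citrate, aspartate and glutamate between the compartments, let in acyl-carnitines for fatty acid oxidation, and supply cofactors such as thiamine pyrophosphate and *S*-adenosylmethionine. They are encoded in the nucleus, made in the cytosol, and enter through the TOM complex of the outer membrane and small TIM chaperones of the intermembrane space. In growing larvae, citrate that leaves mitochondria through a carrier is a source of carbon for lipid synthesis.

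The carriers did not move together. Over the 29 genes the median of the mean log2 ratios was 0.09, against 0.04 over all 11907 genes. There were 10 carriers with a mean below 0 and 19 with one above 0, against 5110 and 6797 of all genes. Of the 29, 17 lay within 0.25 of 0 (62.5% of all genes did), 4 lay under −0.5 (7.44% of all genes) and 3 over 0.5 (9.03%). In the limma fit over all probes, 2 of the 29 had an adjusted p under 0.05 with a lower signal in *poly*, *Dic1* and CG4743, where 1.25% of all genes were lower. None was higher, where 1.42% of all genes were. At an unadjusted p under 0.05, 4 of the 29 were lower, where 8.92% of all genes were, and 5 were higher, where 8.12% were. On all 4 arrays 3 carriers were below 0 (12.3% of all genes were) and 8 above 0 (15.2% of all genes were). The medians of the carriers on replicates 1 to 4 were 0.15, 0.01, 0.26 and 0.10. The medians of all genes were −0.01, −0.05, 0.16 and 0.01 on the same arrays, so replicate 3 was shifted upwards as a whole. It also had the widest spread over all probes (median absolute deviation 0.35, against 0.20 to 0.26 on the others).

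**Figure D1:**
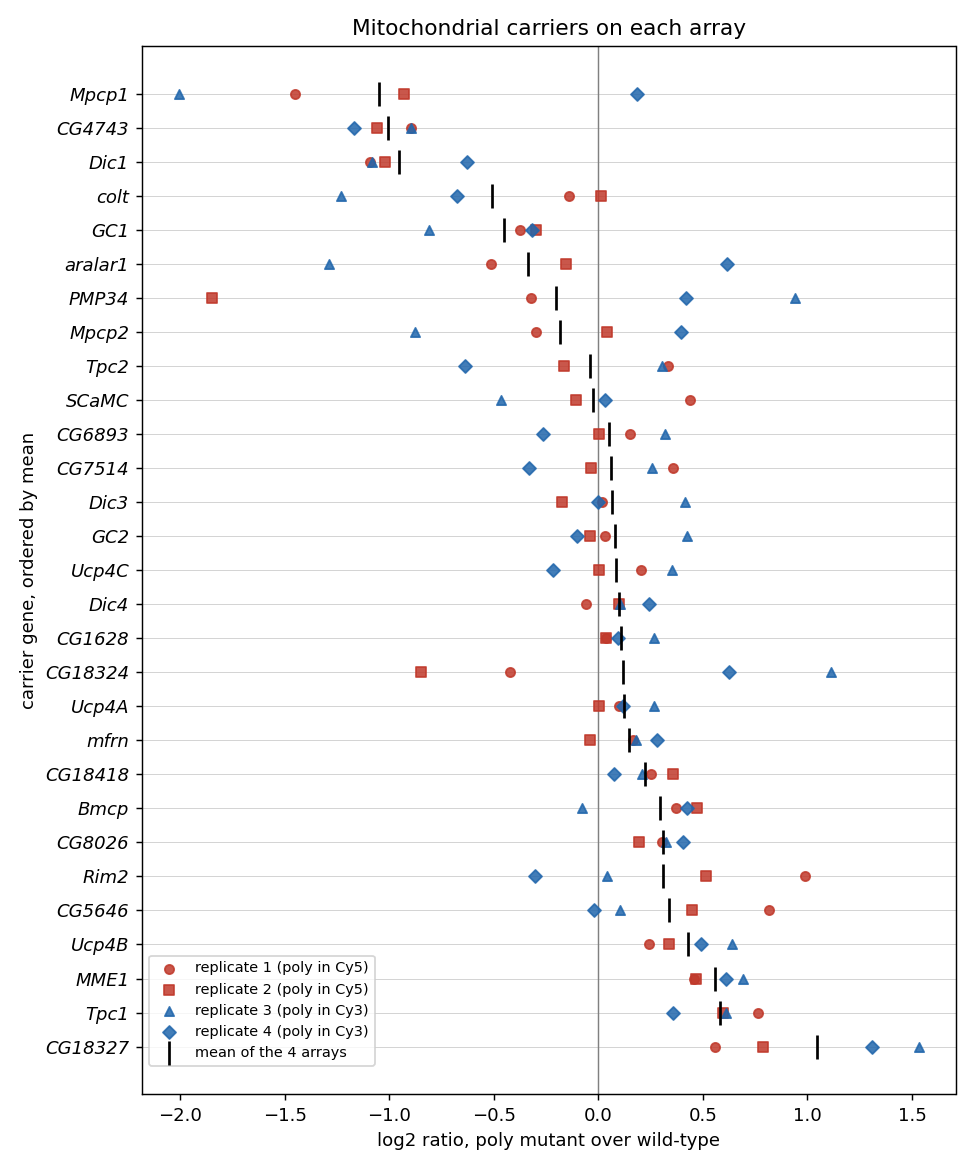
Log2 ratio of *poly* mutant over wild-type (x axis) for each of the 29 carriers (y axis, ordered by mean) on each array, with arrays that carried *poly* in Cy5 in red, those with *poly* in Cy3 in blue, and the mean of the 4 arrays as a black bar. CG4743 and *Dic1* lie below −0.6 on every array, CG18327 lies above 0.5 on every array, and the points of *PMP34* and CG18324 split by dye orientation.

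*Dic1* encodes a carrier that exchanges malate, succinate and related dicarboxylates for phosphate or for each other. On replicates 1 to 4 it had log2 ratios of −1.09, −1.02, −1.08 and −0.63. The mean was −0.95 ± 0.22 (SD, n = 4), with an adjusted p of 0.0371 in limma, or 51.6% of the wild-type signal. It was below 0 on every array, and replicate 4 stood nearer to 0 than the other three. The mean was −1.05 over the arrays with *poly* in Cy5 and −0.86 over those with *poly* in Cy3. The adjusted p was 0.0639 with a term for the dye and 0.0574 after scaling of the arrays to equal spread. Without replicate 3 it was 0.0605, and without replicate 1, 2 or 4 no gene of the array had an adjusted p under 0.05. The ratio itself stayed between −1.06 and −0.91 when each replicate was left out.

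The mutated gene *poly* (CG9829, current symbol *Elp6*, a subunit of Elongator) lies beside *Dic1* on chromosome arm 3R, and the spans of these genes overlap in the RefSeq assembly GCF_000001215.4. *Elp6* had log2 ratios of −1.49, −1.57, −1.69 and −1.79 on the 4 arrays in turn, which averaged −1.63 ± 0.13 (SD, adjusted p = 0.0109 in limma, and 0.0972 to 0.117 without replicate 1, 2 or 4). *Dic1* was therefore nearer to 0 than *Elp6* on each array, and the array with the lowest ratio of *Elp6* was the one with the highest of *Dic1*. The cDNA was labelled by random priming of a double-stranded template, so strand was lost, and the places of the probes of both genes are not known here. Signal from the transcript of the one gene on the probe of the other was not tested.

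None of the 6 measured genes nearest to this pair, 3 on each side, had an adjusted p under 0.05 in limma, and at an unadjusted p under 0.05 2 were higher (8.12% of all genes) and 0 lower (8.92%). *Lip3*, a lipase-like gene on the side of *Dic1*, had ratios of 0.45, 0.75, 0.98 and 1.42 on replicates 1 to 4 (mean 0.90 ± 0.41, SD, adjusted p = 0.0900). On the side of *poly*, CG8773 had a mean of 0.59 ± 0.53, with −0.13 on replicate 3 and values from 0.64 to 1.14 on the others. The means of CG8774, CG32473, *CheA87a* and CG9813 ran from 0.03 to 0.34. All 6 means were above 0, as were those of 6797 of all 11907 genes. *Dic1* and *Elp6*, which lie between these 6, had means below 0.

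**Figure D2:**
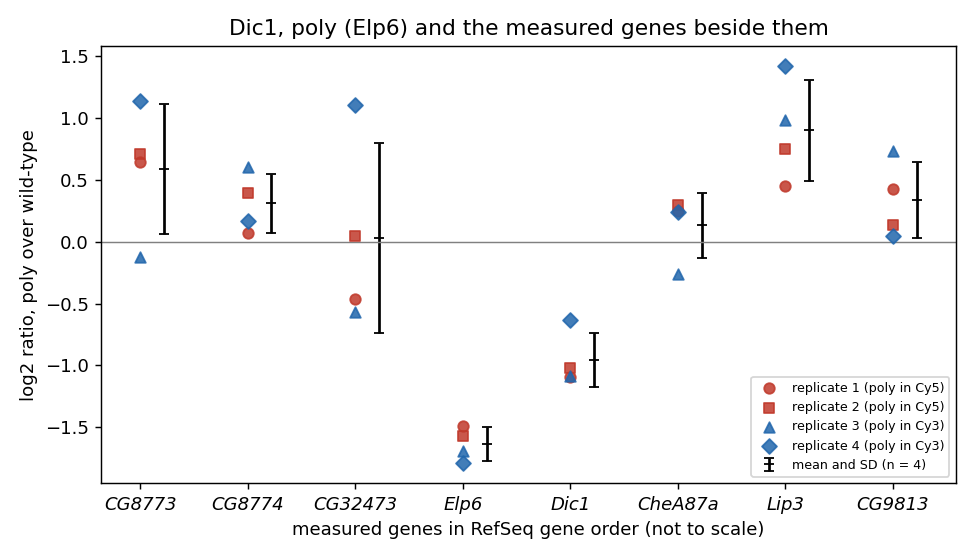
Log2 ratio of *poly* over wild-type (y axis) on each array for *Elp6* (*poly*), *Dic1* and the 3 nearest measured genes on either side, in RefSeq gene order and not to scale (x axis), with black bars for the mean and SD of 4 arrays. *Elp6* and *Dic1* lie below 0 on all arrays, and the means of the 6 neighbours lie between 0.03 and 0.90.

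The relatives of *Dic1* by name did not share its ratio. *Dic3* had log2 ratios of 0.02, −0.17, 0.41 and −0.001 on replicates 1 to 4, with a mean of 0.06 ± 0.25 (SD, n = 4). *Dic4* had −0.06, 0.10, 0.10 and 0.24, with a mean of 0.10 ± 0.12. The ratio of *Dic1* lay below that of *Dic3* by 1.02 ± 0.37 and below that of *Dic4* by 1.05 ± 0.13 on average, and it did so on each array. CG6893, which lies next to *Dic4* on chromosome arm 3L, had a mean of 0.05 ± 0.25. The carriers CG7514 and CG18418, another pair of neighbours on 3L, had means of 0.06 ± 0.31 and 0.22 ± 0.12. CG18418 was above 0 on every array, between 0.07 and 0.36, and CG7514 was on both sides of 0.

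CG4743, a homologue of the mammalian *S*-adenosylmethionine carrier, which brings the methyl donor into the matrix, was the other carrier with an adjusted p under 0.05. CG4743 had log2 ratios of −0.90, −1.06, −0.89 and −1.17 on replicates 1 to 4 and averaged −1.005 ± 0.13 (SD, n = 4), with an adjusted p of 0.0266 in limma, or 49.8% of the wild-type signal. The arrays were close to each other, with a mean of −0.98 with *poly* in Cy5 and −1.03 with *poly* in Cy3. With a dye term the adjusted p was 0.0530. Without replicate 3 it was 0.0326, and without replicate 1, 2 or 4 it was 0.134 to 0.174.

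The phosphate carriers, which bring inorganic phosphate into the matrix for ATP synthesis, varied widely between arrays. *Mpcp1* had the lowest mean of the 29 genes, −1.05, but its ratios were −1.45, −0.93, −2.01 and 0.18 on replicates 1 to 4 (SD 0.93, adjusted p = 0.269 from limma). *Mpcp2* had −0.30, 0.04, −0.88 and 0.40, with a mean of −0.18 ± 0.54. Both were lowest on replicate 3 and highest on replicate 4, and *Mpcp1* lay below *Mpcp2* on each array, by 0.21 to 1.15.

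Among carriers of amino acids and of fatty acid intermediates, *colt*, *GC1* and both probes of *aralar1* had their lowest ratio on replicate 3, and *GC2* had its highest there. *colt* (congested-like trachea), the carnitine/acyl-carnitine carrier of fatty acid oxidation, had log2 ratios of −0.14, 0.01, −1.23 and −0.68 on replicates 1 to 4 (mean −0.51 ± 0.56, adjusted p = 0.414 from limma). *GC1*, a glutamate carrier, was below 0 on every array, with −0.38, −0.30, −0.81 and −0.32 (mean −0.45 ± 0.24, adjusted p = 0.189). *GC2*, its relative with 1 gene between them on 3R, had a mean of 0.08 ± 0.24 with 0.42 on replicate 3, and *GC1* lay below it on each array, by 0.21 to 1.23. *aralar1*, the aspartate/glutamate carrier of the malate–aspartate shuttle, had 2 probes, with means of −0.34 ± 0.79 and 0.06 ± 0.78. The first ran from −1.29 on replicate 3 to 0.61 on replicate 4, the second from −0.97 on replicate 3 to 0.77 on replicate 2, so the probes differed in sign and neither showed one direction.

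Several carriers of cofactors, nucleotides and ions had means above 0. *Tpc1*, a carrier of thiamine pyrophosphate, had log2 ratios of 0.77, 0.60, 0.61 and 0.36 on replicates 1 to 4 (mean 0.58 ± 0.17, SD, adjusted p = 0.0815 from limma). *Tpc2*, its relative, had 0.33, −0.17, 0.31 and −0.64 (mean −0.04 ± 0.46), and *Tpc1* lay above it on each array, by 0.63 ± 0.31 on average. *MME1*, a magnesium exporter of mitochondria, had ratios of 0.46, 0.47, 0.69 and 0.61 (mean 0.56 ± 0.11, adjusted p = 0.0757). The arrays of *MME1* and of *Tpc1* were all above 0, and both genes missed the threshold of 0.05. *Rim2*, a carrier of pyrimidine nucleotides, ran from 0.99 on replicate 1 to −0.30 on replicate 4, with a mean of 0.31 ± 0.56. *mfrn* (mitoferrin), the iron carrier, had a mean of 0.15 ± 0.13, and *SCaMC*, a calcium-regulated carrier of ATP-Mg and phosphate, one of −0.03 ± 0.37. CG8026, a homologue of the mammalian folate carrier, had means of 0.31 ± 0.09 and 0.13 ± 0.11 on its 2 probes, both above 0 on every array.

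Uncoupling proteins and their relatives, a branch of the family named for the mammalian protein that lets protons leak across the inner membrane, lay between 0.09 and 0.43. *Ucp4B* was the highest, with log2 ratios of 0.24, 0.34, 0.64 and 0.49 on replicates 1 to 4 (mean 0.43 ± 0.17, SD, adjusted p = 0.160 from limma). *Ucp4A* had a mean of 0.12 ± 0.11 and lay below *Ucp4B* on each array. *Ucp4C*, with 1 gene between it and *Ucp4B* on chromosome arm 2L, had a mean of 0.09 ± 0.25, and also lay below *Ucp4B* on each array. *Bmcp* had 0.37, 0.47, −0.08 and 0.42 (mean 0.30 ± 0.25).

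The highest carrier of the 29 was CG18327, whose substrate is not stated here. It had log2 ratios of 0.56, 0.79, 1.53 and 1.31 on replicates 1 to 4 and averaged 1.05 ± 0.45 (SD, n = 4), with an adjusted p of 0.0781 in limma, or 2.07 times the wild-type signal. All arrays were above 0, with a mean of 0.67 with *poly* in Cy5 and of 1.42 with *poly* in Cy3. CG18324, which lies next to it on chromosome arm 2R, had −0.42, −0.85, 1.11 and 0.62. Its sign thus followed the dye, with a mean of −0.63 with *poly* in Cy5 and 0.87 with *poly* in Cy3, and the mean over both, 0.12 ± 0.91, hides this split. CG18327 lay above CG18324 on each array, by 0.42 to 1.63. *PMP34* showed a like split, with −0.32 and −1.85 with *poly* in Cy5 and 0.94 and 0.42 with *poly* in Cy3 (mean −0.20 ± 1.21). *colt*, *Rim2* and CG5646 differed between dyes the other way. Their means were −0.06, 0.75 and 0.63 with *poly* in Cy5 and −0.95, −0.13 and 0.04 with *poly* in Cy3. Dye orientation and the replicates that carried it cannot be told apart on 2 arrays each. The last carriers, CG5646 and CG1628, had means of 0.34 ± 0.38 and 0.11 ± 0.11.

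Related carriers were set against each other within arrays for 10 pairs, and in 8 the order was the same on the 4 arrays. The other two were *Dic3* with *Dic4* and *Ucp4A* with *Ucp4C*, whose mean differences were −0.03 ± 0.28 and 0.03 ± 0.20. With 4 arrays a two-sided exact permutation test by sign flips cannot reach an adjusted or unadjusted p of 0.05, so no test of these differences was made. Several pairs share a gene, so the 10 are not independent. How often pairs of other genes keep one order was not counted, so 8 of 10 is a description only. Probes of close relatives can share signal, and how far they do was not tested.

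**Figure D3:**
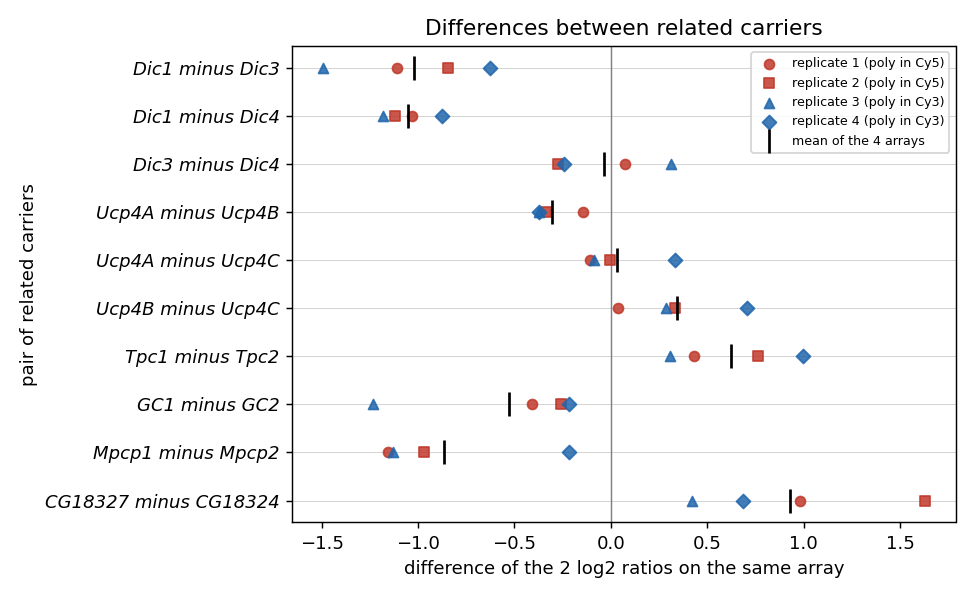
Difference between the log2 ratios of related carriers on the same array (x axis) for 10 pairs (y axis), with *poly* in Cy5 in red and in Cy3 in blue and the mean of 4 arrays as a black bar. *Dic1* lies below *Dic3* and *Dic4*, and *Tpc1* above *Tpc2*, on all arrays, while *Dic3* and *Dic4* lie on both sides of each other.

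Carriers enter through the TOM complex, the gate that proteins with a presequence also use, and small TIM chaperones then pass them to the inner membrane. The measured genes of TOM and of these chaperones, called import genes of carriers here, had means below 0. Of 10 genes listed, 8 were measured, and these 8 ran from −1.19 for *mge* to −0.25 for *Tim10*, with a median of −0.62 (0.04 over all genes). *mge*, which encodes the TOM22 receptor of the outer membrane, fell, with log2 ratios of −1.02, −1.29, −1.21 and −1.24 on replicates 1 to 4 (mean −1.19 ± 0.12, SD, n = 4, adjusted p = 0.0178 from limma). Its second probe had a mean of −0.91 ± 0.09. Without replicate 1, 2 or 4 its adjusted p was 0.119 to 0.133. It was the only one of the 8 to pass, where 1.25% of all genes were lower, and at an unadjusted p under 0.05 6 of the 8 were lower, where 8.92% of all genes were. *Tom40*, the pore of the TOM complex, had −0.98, −1.002, −2.07 and −0.27 (mean −1.08 ± 0.74, adjusted p = 0.173). The receptor *Tom70*, at which carriers dock, had a mean of −0.69 ± 0.31 (adjusted p = 0.107), *Tom20* one of −0.47 ± 0.18 and *Tom7* one of −0.64 ± 0.39. Among the small TIM chaperones, *Tim9a* had a mean of −0.53 ± 0.17 (adjusted p = 0.105), *Tim8* one of −0.59 ± 0.59 and *Tim10* one of −0.25 ± 0.66. *Tim10* alone was above 0 on some arrays, and the other 7 genes were below 0 on all 4, as were 12.3% of all genes. The list was drawn up with earlier results of these arrays known.

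Markers of muscle, a tissue rich in mitochondria, were low on the same arrays as the import genes. Of 10 muscle markers 7 were measured and 0 passed limma's test (1.25% of all genes were lower and 1.42% higher). At an unadjusted p under 0.05, 6 were lower (8.92% of all genes) and 0 higher (8.12%). Of the 7, 6 had a mean below 0 (*bt*, −0.81, to *up*, −0.51), and *Mlc2* had 0.08. The second probe of *Tm2* (0.10) differed in sign from its first (−0.57). *Mhc*, *Act57B* and *wupA* are not analysed here. The medians of the muscle markers were −0.57, −0.37, −1.005 and −0.26 on replicates 1 to 4, and those of the import genes were −0.61, −0.63, −1.09 and −0.29, so both were lowest on replicate 3 and nearest to 0 on replicate 4. The neuron markers (−0.20) and the lists below of presequence import (−0.37), other transporters (−0.23) and enzymes (−0.85) also had their lowest median on replicate 3. A low replicate 3 was therefore not particular to muscle and import. The 29 carriers had their highest median there (0.26), as did the markers of testis, fat body and Malpighian tubules. Replicate 3 also had the widest spread over all probes (median absolute deviation 0.35, against 0.20 to 0.26 on the others). The part of muscle RNA in the ratios of the import genes and carriers was not tested. The medians of markers of neurons (4 genes, −0.20 to 0.04 on the arrays) and of testis (6 genes, −0.20 to 0.07) lay near 0. At an unadjusted p under 0.05, 0 testis markers were lower or higher. Of the neuron markers 1 was lower (8.92% of all genes) and 0 higher (8.12%). This was *nSyb*, below 0 on each array (mean −0.42 ± 0.31), with a mean of −0.17 ± 0.33 on its second probe. The 3 measured markers of fat body varied from −3.48 to 5.22 between arrays. At an unadjusted p under 0.05, 1 was higher (8.12% of all genes) and 0 lower (8.92%). It was *Fbp2*, with −0.13, 3.62, 3.19 and 3.43 on replicates 1 to 4 (mean 2.52 ± 1.78, adjusted p = 0.169 in limma). *Lsp2* and *Fbp1* had means of 0.65 ± 2.93 and 0.64 ± 3.22. Of 7 gut markers 0 passed, and their median was 0.26. At an unadjusted p under 0.05, 2 of them were higher (8.12% of all genes) and 0 lower (8.92%). These were *alphaTry* (mean 2.15 ± 1.01) and *betaTry* (0.83 ± 0.57), both above 0 on each array. The other gut markers had means from −0.07 to 0.55. The 3 markers of Malpighian tubules differed in sign: in limma CG3285 rose (1.95 ± 0.26, adjusted p = 0.0127), *salt* was below 0 on each array without passing (−0.39 ± 0.10, adjusted p = 0.148) and *Irk3* had a mean of −0.02 ± 0.23.

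Genes that act past the TOM complex on proteins with a cleaved presequence, which are bound for the matrix or inner membrane, did not pass in limma. Of 9 measured genes 5 had a mean below 0, with a median of −0.29, and at an unadjusted p under 0.05 2 were lower (8.92% of all genes) and 0 higher (8.12%). *blp*, a subunit of the import motor, had log2 ratios of −0.50, −0.85, −0.51 and −0.62 on replicates 1 to 4 (mean −0.62 ± 0.16, SD, adjusted p = 0.0726). *ttm50* had a mean of −0.29 ± 0.10, *Tim17b* one of −0.41 ± 0.36 and *Roe1*, a nucleotide exchange factor of the motor, one of −0.56 ± 0.62. The paralogues *Tim17a1*, *Tim17a2*, *Tim17b1* and *Tim17b2* had means from 0.05 to 0.20.

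None of 9 measured transporters of mitochondria from other families passed in limma, and at an unadjusted p under 0.05 1 was lower (8.92% of all genes) and 2 were higher (8.12%). *Mpc1*, a subunit of the mitochondrial pyruvate carrier, was below 0 on each array, with −0.64, −0.56, −1.34 and −0.67 (mean −0.80 ± 0.36, SD, adjusted p = 0.0958). Other genes of its family differed from it, with a mean of −0.35 ± 0.59 for CG9399, of 0.65 ± 0.54 for CG9396 and of 0.02 ± 0.28 for CG32832. *Letm1*, a cation exchanger of the inner membrane, was above 0 on each array (mean 0.53 ± 0.14, adjusted p = 0.0900). *porin*, the channel of the outer membrane, had a mean of 0.11 ± 0.56.

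Of 11 measured enzymes that make or use the substrates of carriers, 1 fell in limma and 10 did not pass. Over all genes 1.25% were lower. At an unadjusted p under 0.05, 3 of the 11 were lower (8.92% of all genes) and 2 higher (8.12%). *Gpdh1*, the glycerol-3-phosphate dehydrogenase of the cytosol, which works in a shuttle beside the carriers, had log2 ratios of −1.10, −1.38, −2.16 and −1.41 on replicates 1 to 4 (mean −1.51 ± 0.45, SD, adjusted p = 0.0370). It had 3 probes, and the others had means of −1.27 ± 1.06 and 0.21 ± 0.90, so its probes differed in sign. *Mdh1*, the malate dehydrogenase of the cytosol, was below 0 on each array, between −0.84 and −0.26 (mean −0.55 ± 0.25, adjusted p = 0.128). *Gdh*, glutamate dehydrogenase, had a mean of −0.65 ± 0.50, with 0.08 on replicate 4. *Pepck1*, which makes phosphoenolpyruvate from oxaloacetate, was above 0 on each array, between 0.88 and 2.20 (mean 1.43 ± 0.56, adjusted p = 0.0615). The call of *Gpdh1* was lost with a dye term (adjusted p = 0.0570) and with median centring (adjusted p = 0.0514), and without replicate 1, 2 or 4 (adjusted p = 0.165 to 0.177). That of *mge* was kept with a dye term and with centring.

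Of 8 further genes taken as carriers of this type, by CG number and outside the list, 7 were measured. In limma 0 passed, and at an unadjusted p under 0.05 1 was lower (8.92% of all genes were). This was CG4995, with log2 ratios of −0.62, −0.73, −0.13 and −0.33 on replicates 1 to 4 (mean −0.45 ± 0.27, SD, adjusted p = 0.209). The means of the others, CG7943, CG10920, CG5805, CG9582, CG2616 and CG8323, ran from −0.31 to 0.45. The median of the gene means, with CG4995, was 0.25, against 0.09 for the 29 carriers. Within arrays this order did not hold. The medians of the 7 on replicates 1 to 4 were −0.09, −0.10, −0.13 and 0.19, against 0.15, 0.01, 0.26 and 0.10 for the 29 carriers. CG2616 (0.44 ± 1.61) and CG8323 (0.45 ± 0.76) varied widely between arrays.

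**Figure D4:**
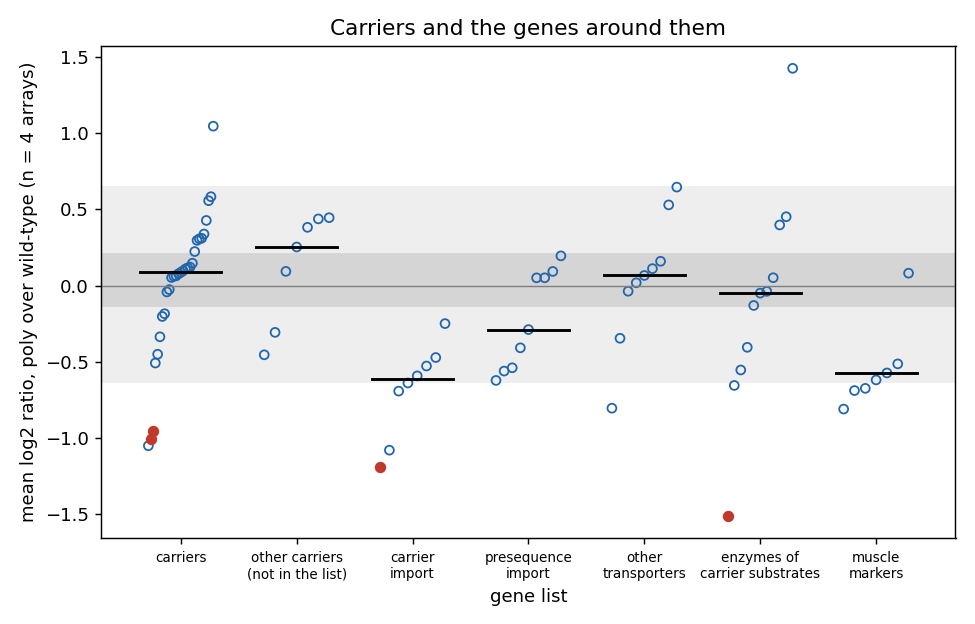
Mean log2 ratio of *poly* over wild-type over 4 arrays (y axis) for each gene of the carriers and of the lists around them (x axis), with genes at an adjusted p under 0.05 filled in red and the others as open blue circles. Each circle is the probe with the smallest p, black bars are list medians over the means of each gene's probes, and grey bands hold the middle 50% and 90% of all genes. The carriers centre at 0.09 and the carrier import genes at −0.62.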

How the data were processed

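The authors hybridized cDNA from 5 µg of total RNA, of which 500 ng was labelled, to long-oligonucleotide FL002 arrays, measured spots with Dapple and used vsn for normalization. The deposited values are log2 ratios of 4 arrays. The sources used here do not state the background correction, the spot filters or the vsn settings. All columns were read, unturned, as *poly* over wild-type, in the direction of the study's own fold changes and with *poly* low on each array, so the fall of *poly* is no separate check of the direction.

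Probes were named by GEO's platform annotation, updated through RefSeq (GCF_000001215.4): 12657 carried 1 symbol, 96 several, 1 none, and 1815 are unnamed here. The probe with the smallest p stands for a gene, and list medians use the means of its probes. With limma's lmFit and eBayes, the mean ratio of each probe was tested against 0 on both sides, p-values were adjusted over all probes by Benjamini and Hochberg, and 0.05 was the threshold. A gene was called if a probe passed and none passed the other way.

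Named were all carriers with a probe, *Elp6*, of each pathway list the genes that passed and the 4 with the smallest p where fewer passed, and 3 measured genes on either side of *Dic1* and *Elp6*. Other genes named, markers included, were picked once their values had been seen. The members and lists were chosen with earlier results of these data known. A planned check of proteins for the carrier signature was not run, and sequences are not used here. CG3476, listed among further carriers, is *MME1* and was counted once. The fit was also run on simulated ratios, drawn as independent normal values with the SDs of these probes shuffled. They held no dye split and no array of wider spread, so they are no check of the calls made here. Alternatives were a dye term, median centring, scaling of the arrays, probes averaged per gene, array weights, a robust prior, only probes with 1 symbol, and each replicate left out. The fit ran in R 4.3.3 with limma 3.58.1, the summaries in Python 3.11.15 with numpy 2.4.6 and pandas 2.3.3, and the plots in matplotlib 3.10.9.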

Additional observations from a re-analysis of the deposited data

Results flagged for a closer look

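Among 56 genes checked, 4 had 1 array apart from the other three by Dixon's criterion for 4 values, where chance gives about 1 in 20. *Dic1* stood at −0.63 on replicate 4, *GC1* at −0.81 and *Mpc1* at −1.34 on replicate 3, and *CheA87a*, a neighbour of *Dic1*, at −0.26 on replicate 3.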

How the results depend on the processing

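The carriers' median kept within its spread between arrays under all alternatives, from 0.05 to 0.13. A dye term, probes averaged per gene, a robust prior and only probes with 1 symbol cannot change it, so these are no check of it. Over all genes 149 were lower and 169 higher, against 65 and 96 with a dye term, 639 and 622 with array weights, and 83 higher with the arrays scaled to one spread. Without replicate 1, 2 or 4 limma called 0 genes (at an unadjusted p under 0.05, 689 to 932 were lower and 603 to 707 higher), and without replicate 3 it called 151 lower and 216 higher. Of the carriers, 0 were lower with a dye term, 1 was lower (CG4743) and 1 higher (CG18327) with scaled arrays, and 3 were higher with array weights (CG18327, *MME1* and *Tpc1*). Leaving out a replicate gave 0 to 1 lower. *Dic1* (−0.95) missed the threshold with a dye term (−0.95), with scaled arrays (−1.01) and without each replicate (−1.06 to −0.91). *Elp6* missed it without replicate 1, 2 or 4 (−1.68 to −1.58). With array weights, which lean on replicates 1 and 2 and so on 1 dye orientation, 6 genes of carrier import, 1 of presequence import, 1 other transporter, 2 enzymes and 1 further carrier (CG4995) were lower, and 2 other transporters, 1 enzyme and 2 neighbours of *Dic1* were higher. Of the enzymes 0 were lower with a dye term or median centring. Without replicate 1, 2 or 4 the import genes and enzymes had 0 lower. CG32473 changed sign with array weights (−0.052), and lay between −0.33 and 0.23 when a replicate was left out. The cause was not tested. With a replicate left out, 8 to 9 of 10 pairs of related carriers had one order. This count cannot fall below the 8 found on all 4 arrays, so it is no check of them. The fit is itself paired, since each ratio sets both genotypes against each other on 1 array, and no further replicate block could be added to it.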
